A study of Mus musculus with 4 samples.

Results

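Transcript levels of 10 genes of mineralized bone matrix and of osteocytes were examined in CD51+;CD200+ skeletal stem/progenitor cells of mouse cranial sutures and growth plate. The genes were taken by symbol from the 23946 listed in each library. They were *Ibsp*, *Spp1*, *Bglap*, *Bglap2*, *Dmp1*, *Mepe*, *Phex*, *Alpl*, *Sparc*, and *Sost*, and all 10 were found. Bulk RNA-seq gave 1 library each for the coronal (COR), sagittal (SAG), and posterior frontal (PF) sutures and for the growth plate (GP) of the tibia, all from untreated wild-type CD-1 mice at postnatal day 3 (pN3). Of the sutures, PF is the one that normally closes, and COR and SAG serve as patent sutures. All 4 populations were sorted as CD51+ and CD200+ and as negative for CD45, Ter119, Tie2, both Thy1 antigens, 6C3, and CD105. The dissected suture complex held the osteogenic fronts, suture mesenchyme, dura mater, and periosteum, and the methods give the mice as a group for the 4 tissues, with no number per library. As no tissue has a replicate library, no difference was tested, and differences between tissues and between single libraries cannot be told apart.

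Osteoblasts lay down a collagen matrix into which calcium phosphate is deposited, and some of them become osteocytes, the cells enclosed in bone. Tissue non-specific alkaline phosphatase removes pyrophosphate, an inhibitor of mineral, and acidic phosphoproteins and osteocalcin bind the mineral or its ions. Osteocytes then release factors that control phosphate handling and bone formation. The stages are often read from these genes, with *Alpl* and *Spp1* early, *Ibsp* and *Bglap* later, and *Dmp1*, *Phex*, *Mepe*, and *Sost* in osteocytes.

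Values are FPKM, fragment numbers scaled for transcript length and library size, so levels of different genes can be set side by side per length. Of the sort antigens, *Itgav* (CD51) and *Cd200* were at 6.20 FPKM or more in each library, and of those sorted as negative, *Enpep* (6C3) reached 7.05 FPKM and *Eng* (CD105) 1.70, both in PF, while *Ptprc*, *Tek*, and *Thy1* were below 1. Total FPKM was from 447174 to 550958 per library. The most common low value of FPKM times transcript length, over genes with a single transcript, was taken as the step of a library. It put the depth of the PF library at 43.6% of that of the deepest library, and COR and GP at 83.4% or more. *Sparc* is listed at 0 in COR, along with *Col1a1*, *Col1a2*, and *Col3a1*, while each was at 533 FPKM or more in PF and SAG. *Col1a2* is also listed at 0 in GP. The 0 of *Sparc* in COR was treated as missing, and counts that include COR therefore cover at most 9 of the 10 genes. In bulk libraries, fewer cells of a type and less RNA per cell cannot be told apart.

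The genes fell into different orders over the 4 tissues, but COR held the highest level of each of the 9 with a value there. Of all 13998 genes that reached 1 FPKM in any library, as each of the 9 did, 19.9% were highest in COR. *Mepe*, *Phex*, and *Sost* reached 1 FPKM only in COR and GP. The lowest level was in SAG for 5 of the 9 genes and in PF for 4, compared with 27.4% and 35.8% of all 13998 genes. Summed over the 9 genes, FPKM was 11844 in COR, 8178 in GP, 2794 in PF, and 884 in SAG. This sum was 2.41% of the total FPKM in COR, 1.59% in GP, 0.507% in PF, and 0.198% in SAG. *Spp1* alone supplied from 59.0% of the sum in PF to 84.2% in GP.

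**Figure D1:**
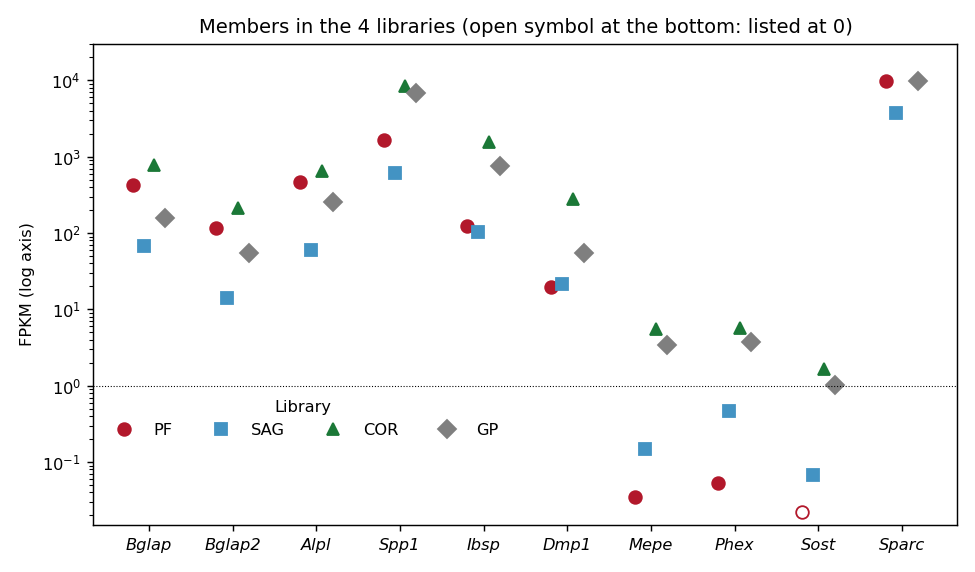
FPKM of the 10 genes in the PF, SAG, COR, and GP libraries on a log axis, 1 point per library with no error because there are no replicates. COR is the highest point for every gene except *Sparc*, which has no COR value, and *Mepe*, *Phex*, and *Sost* lie below 1 FPKM (dotted line) in PF and SAG.

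Of the genes, 4 encode phosphoproteins of the small integrin-binding ligand N-linked glycoprotein family and lie in a single cluster on mm9 chromosome 5. *Spp1* (chr5:104864137-104870069, plus strand) encodes osteopontin, a matrix protein that binds integrins and mineral. *Spp1* was at 8324 FPKM in COR, 6882 in GP, 1649 in PF, and 617 in SAG. It was the most abundant transcript of the COR library as listed and ranked 2 in GP, 27 in PF, and 60 in SAG. Ranks here and below count *Sparc*, *Col1a1*, *Col1a2*, and *Col3a1* as 0 in COR, and *Col1a2* as 0 in GP. COR and GP were near each other, at a ratio of 1.21, and PF lay between them and SAG.

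*Ibsp* (chr5:104728190-104740488, plus strand) encodes bone sialoprotein, which can nucleate mineral. *Ibsp* was at 1575 FPKM in COR, 761 in GP, 123 in PF, and 104 in SAG. PF and SAG were within 1.18-fold of each other, and the COR level was 12.8 times that of PF and 15.2 times that of SAG. *Ibsp* ranked 15 among the transcripts of COR, 66 in GP, 827 in PF, and 828 in SAG.

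*Dmp1* (chr5:104631632-104643121, plus strand) encodes dentin matrix protein, a phosphoprotein of osteocytes and late osteoblasts. *Dmp1* was at 281 FPKM in COR, 55.0 in GP, 19.7 in PF, and 21.8 in SAG. COR stood apart, 5.12 times above GP, the next library, and 14.3 times above PF. *Dmp1* was thus the only phosphoprotein gene of the cluster for which COR and GP differed by more than 3-fold.

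*Mepe* (chr5:104754348-104767630, plus strand) encodes a matrix phosphoglycoprotein of osteocytes. *Mepe* was at 5.52 FPKM in COR, 3.39 in GP, 0.0353 in PF, and 0.146 in SAG. The PF value equals about 1.02 steps of that library, so it may rest on roughly a single fragment, while the COR value equals about 319 steps. COR and GP were near each other and both were above 1 FPKM, which neither PF nor SAG reached.

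The cluster spans 238 kb from the start of *Dmp1* to the end of *Spp1*. *Dspp*, the dentin gene of the same family and the next gene before *Dmp1*, is listed at 0 in all 4 libraries. The genes that flank the family differed from each other. *Sparcl1*, upstream of *Dspp*, was at 8.45 FPKM in COR, 68.2 in GP, 36.4 in PF, and 53.3 in SAG, lowest where the phosphoprotein genes were highest. *Pkd2*, downstream of *Spp1*, was at 37.6, 35.1, 15.5, and 16.4 FPKM in these libraries, the order of *Dmp1* and *Mepe*.

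**Figure D2:**
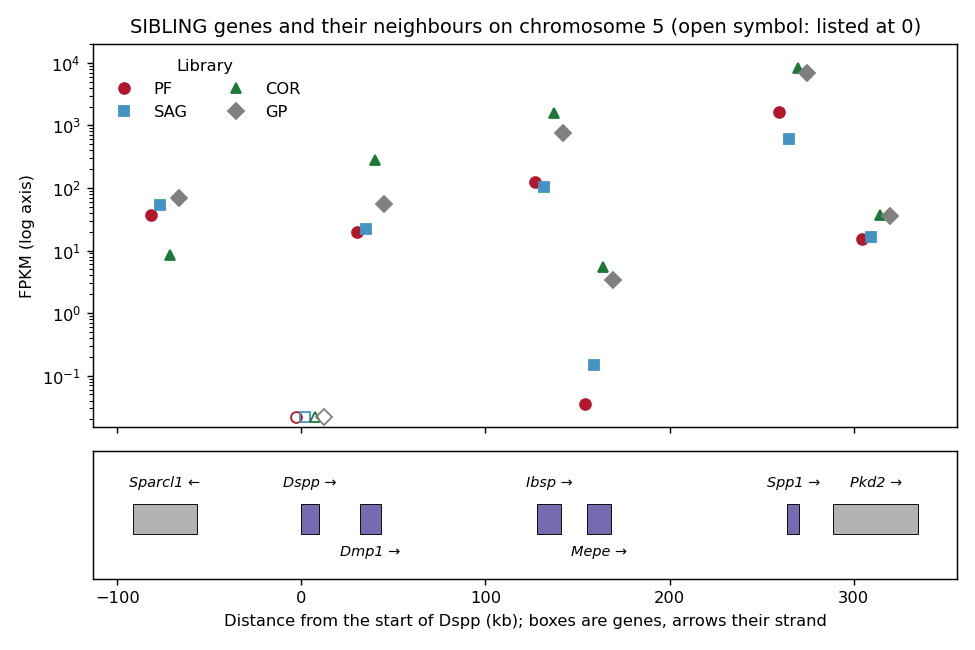
Top, FPKM (log axis) of the phosphoprotein genes and their flanking genes in the 4 libraries, placed by distance in kb from the start of *Dspp* (open symbols, listed at 0). Bottom, the genes as boxes to scale with their strand, with the family in purple. The 4 members in the cluster are highest in COR, and *Sparcl1* is lowest there at 8.45 FPKM.

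Osteocalcin is a small calcium-binding protein of mature osteoblasts that the mouse encodes in several copies. *Bglap* (mm9 chr3:88187423-88188386) and *Bglap2* (chr3:88181658-88182621) lie beside each other on the minus strand. The coding sequences of *Bglap* and *Bglap2*, read from the GENCODE transcripts of mm9, are given because they show how little separates the pair. Each has 288 bases, and capitals mark the 4 bases that differ.
Bglap: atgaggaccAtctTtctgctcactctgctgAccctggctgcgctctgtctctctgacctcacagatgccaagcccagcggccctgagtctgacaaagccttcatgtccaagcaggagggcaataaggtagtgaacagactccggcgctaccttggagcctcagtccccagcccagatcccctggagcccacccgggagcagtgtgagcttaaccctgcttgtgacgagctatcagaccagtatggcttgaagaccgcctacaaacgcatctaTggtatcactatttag
Bglap2: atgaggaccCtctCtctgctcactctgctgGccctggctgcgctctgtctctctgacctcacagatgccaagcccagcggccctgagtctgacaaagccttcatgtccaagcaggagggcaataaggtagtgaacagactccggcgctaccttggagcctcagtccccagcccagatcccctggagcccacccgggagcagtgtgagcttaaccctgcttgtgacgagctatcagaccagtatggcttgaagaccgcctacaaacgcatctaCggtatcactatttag
The sequences are 98.6% identical, and the longest identical run is 241 bases. Fragments from such runs can be divided between the copies in more than 1 way, so the split between *Bglap* and *Bglap2* is uncertain.

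*Bglap* was at 790.1 FPKM in COR, 159 in GP, 426 in PF, and 67.1 in SAG. *Bglap2* was at 216 FPKM in COR, 54.7 in GP, 116 in PF, and 14.1 in SAG. The copies had the same order, with COR and PF within 2-fold of each other, GP below them, and SAG lowest. The ratio of *Bglap2* to *Bglap* was from 0.210 in SAG to 0.343 in GP, a narrower range than the level of either copy.

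*Alpl* (mm9 chr4:137297648-137352299, minus strand) encodes tissue non-specific alkaline phosphatase. *Alpl* was at 645 FPKM in COR, 258 in GP, 461 in PF, and 59.7 in SAG. Its order was that of the osteocalcin copies, although PF and GP were within 2-fold of each other. The PF level was 7.73 times that of SAG.

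*Phex* (mm9 chrX:153596618-153853244, minus strand) encodes a membrane endopeptidase of osteoblasts and osteocytes whose loss causes phosphate wasting. *Phex* was at 5.66 FPKM in COR, 3.74 in GP, 0.0527 in PF, and 0.462 in SAG. A microRNA gene, a small nucleolar RNA gene, and a pseudogene are annotated within its bounds, and no other of the 10 genes overlaps an annotated gene. *Sost* (mm9 chr11:101823772-101828329, minus strand) encodes sclerostin, the Wnt antagonist of mature osteocytes. *Sost* was at 1.64 FPKM in COR, 1.02 in GP, and 0.0668 in SAG, and its PF value is 0. The SAG value equals about 5.42 steps of that library, and the COR value about 117. For *Phex*, the SAG value equals about 114 steps and the PF value about 5.65, so *Phex* was also detected in SAG. These osteocyte genes were therefore low in COR and GP and at or below 0.462 FPKM in PF and SAG.

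*Sparc* (mm9 chr11:55208002-55233582, minus strand) encodes osteonectin, a collagen-binding protein of bone and of many connective tissues. *Sparc* was at 9678 FPKM in GP, 9849 in PF, and 3723 in SAG. It was the most abundant transcript of PF and, with *Col1a2* listed at 0, of GP, and ranked 2 in SAG. PF and GP were near each other, and SAG was 2.65 times below PF.

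For each pair of libraries, log2 ratios of FPKM + 1 were taken for genes that reached 1 FPKM in either library, a scale that understates the change of low genes. A ratio of 3-fold or more, 1.58 on the log2 scale, was counted, since the study used a 3-fold threshold. The pairs share libraries, so the counts are not independent of each other. *Bglap* and *Bglap2* count as 2 genes although the split between them is uncertain, and counts with the copies summed are given at the end. *Mepe*, *Phex*, and *Sost* enter a pair only through COR or GP, where they are higher. Counts without them are therefore also given for COR or GP against PF or SAG.

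Between the patent sutures, 8 of the 9 genes compared were at least 3-fold higher in COR than in SAG, and 0 were 3-fold higher in SAG. Over all 12719 genes compared, 3.11% were 3-fold higher in COR and 6.14% in SAG. The median log2 ratio of the 9 genes was 3.54, and that of the 6 that reached 1 FPKM in both libraries was 3.69, compared with -0.02 over all genes. Those 6 all passed, from *Alpl* at 3.41 on the log2 scale to *Ibsp* at 3.91. *Sost* was higher in COR at 1.31, below the threshold.

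Between COR and PF, 5 of 9 genes were at least 3-fold higher in COR and 0 in PF. Over all 12852 genes, 4.87% were 3-fold higher in COR and 6.80% in PF. The log2 ratio was 3.77 for *Dmp1*, 3.67 for *Ibsp*, and 2.33 for *Spp1*, which were the 3 passing of the 6 that reached 1 FPKM in both libraries. The log2 ratio was 0.89 for *Bglap*, 0.90 for *Bglap2*, and 0.48 for *Alpl*, so these genes were within 2-fold between PF, the fusing suture, and COR. The median was 1.62 over these 6 genes and 2.33 over all 9, compared with -0.05 over all genes.

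Between COR and GP, 3 of 9 genes were at least 3-fold higher in COR and 0 in GP, where 1.20% and 3.19% of all 12208 genes were. These were *Dmp1* at 2.34 on the log2 scale, *Bglap* at 2.30, and *Bglap2* at 1.96. *Alpl* and *Ibsp* followed at 1.32 and 1.05, and the remaining 4 genes were between 0.27 and 0.57. The median was 1.05, compared with 0.02 over all genes.

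Between GP and SAG, 6 of 10 genes were at least 3-fold higher in GP and 0 in SAG. Over all 12929 genes, 3.86% were 3-fold higher in GP and 4.80% in SAG. *Spp1* had the largest log2 ratio at 3.48, and *Ibsp* followed at 2.86, *Alpl* at 2.09, and *Bglap2* at 1.88. *Bglap* at 1.23 and *Dmp1* at 1.30 did not pass. Of the 7 that reached 1 FPKM in both libraries, 4 passed. Their median was 1.88 and that over the 10 genes was 1.79, compared with -0.03 over all genes.

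Between GP and PF the genes divided. Of 10 genes, 4 were at least 3-fold higher in GP and 0 in PF, where 6.24% and 5.72% of all 13101 genes were. *Ibsp* was higher in GP at 2.62 on the log2 scale and *Spp1* at 2.06, and *Mepe* and *Phex* also passed. *Bglap*, *Bglap2*, and *Alpl* were lower in GP, at -1.41, -1.07, and -0.84, and *Sparc* was at -0.03. Without *Mepe*, *Phex*, and *Sost*, 2 of 7 genes passed and the median was -0.03, compared with 1.22 over all 10 and -0.03 over all genes.

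Between PF and SAG, 3 of 7 genes were at least 3-fold higher in PF and 0 in SAG. Over all 13490 genes, 6.64% were 3-fold higher in PF and 9.04% in SAG. The 3 were *Bglap2* at 2.95 on the log2 scale, *Alpl* at 2.93, and *Bglap* at 2.65. *Spp1* and *Sparc* were at 1.42 and 1.40, and *Ibsp* and *Dmp1* were at 0.24 and -0.14. *Mepe*, *Phex*, and *Sost* did not reach 1 FPKM in either library. The median was 1.42, compared with 0.03 over all genes.

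**Figure D3:**
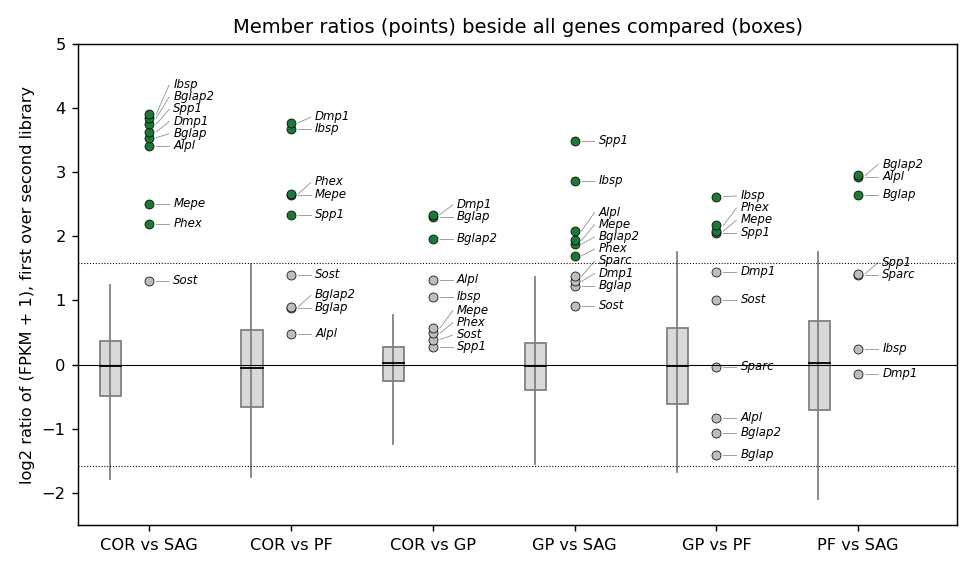
Log2 ratio of (FPKM + 1) for each gene in the 6 pairs of libraries (points, green at 3-fold or more, dotted lines at 1.58 and -1.58), beside all genes compared (box, 25th to 75th percentile; line in the box, median; whiskers, 5th to 95th percentile). No gene passes 3-fold in favor of SAG or PF against another library except *Bglap2*, *Alpl*, and *Bglap*, which pass for PF over SAG.

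A ratio of FPKM within a library does not change when the whole library is rescaled, so the genes were also set against *Ibsp* in each library. *Bglap* relative to *Ibsp* was 0.502 in COR, 0.209 in GP, 3.46 in PF, and 0.647 in SAG. *Alpl* relative to *Ibsp* was 0.410 in COR, 0.339 in GP, 3.75 in PF, and 0.575 in SAG. PF thus had more *Bglap* and *Alpl* transcript per *Ibsp* transcript than any other library, and GP the least. *Bglap2* showed the same, at 0.940 in PF and 0.0719 in GP. *Spp1* relative to *Ibsp* varied less, from 5.29 in COR to 13.4 in PF.

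*Dmp1* relative to *Ibsp* was 0.179 in COR, 0.0722 in GP, 0.160 in PF, and 0.210 in SAG, so the 3 sutures lay within 1.5-fold of each other and GP was lower. Relative to *Dmp1*, the other osteocyte genes were highest in GP. *Mepe* relative to *Dmp1* was 0.0617 in GP and 0.0196 in COR, and *Phex* relative to *Dmp1* was 0.0681 in GP and 0.0201 in COR. In PF both ratios were below 0.003 and rested on values of few steps. *Spp1* relative to *Sparc* was 0.167 in PF, 0.166 in SAG, and 0.711 in GP.

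**Figure D4:**
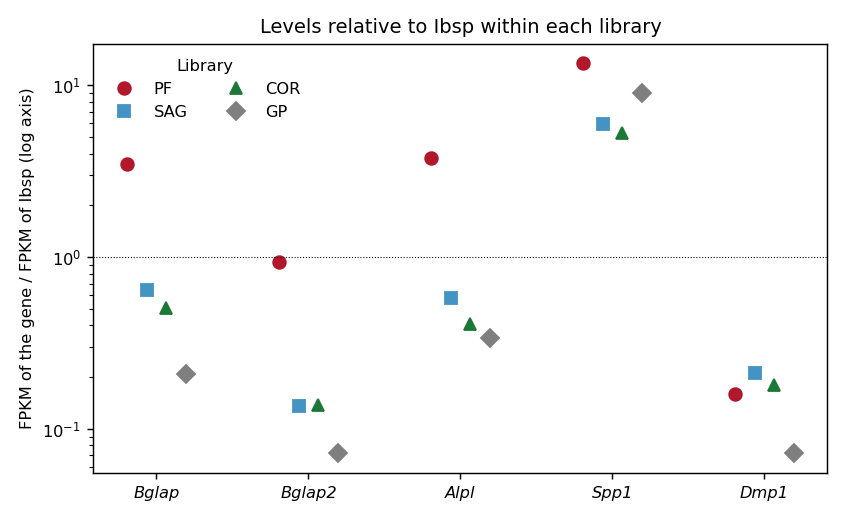
FPKM of 5 genes divided by the FPKM of *Ibsp* in the same library (log axis; dotted line, equal level), 1 point per library. The PF points of *Bglap*, *Bglap2*, and *Alpl* are highest, at 3.46, 0.940, and 3.75, and the GP points are lowest.

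Levels were also set against *Runx2*, the transcription factor required for osteoblast formation, which was at 30.4 FPKM in COR, 18.1 in GP, 18.9 in PF, and 9.41 in SAG. *Ibsp* relative to *Runx2* was 51.8 in COR, 42.1 in GP, 6.52 in PF, and 11.0 in SAG. *Bglap* relative to *Runx2* was 22.6 in PF and 26.0 in COR, compared with 7.13 in SAG and 8.80 in GP. PF and COR were therefore near each other for *Bglap* per *Runx2* but not for *Ibsp* per *Runx2*.

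Genes of the same processes were counted from lists that leave out the 10 genes themselves. Among genes of phosphate and pyrophosphate handling, 4 of 7 compared were at least 3-fold higher in COR than in SAG and 0 in SAG, with a median log2 ratio of 1.88. *Smpd3*, a sphingomyelinase needed for mineralization, was at 71.0 FPKM in COR, 48.0 in GP, 16.4 in PF, and 2.09 in SAG. *Phospho1*, a phosphatase of matrix vesicles, was at 8.16, 5.90, 2.22, and 0.255 FPKM in COR, GP, PF, and SAG, and *Enpp1*, which makes pyrophosphate, at 86.6, 45.0, 18.7, and 15.6. *Enpp1*, which makes pyrophosphate, and *Alpl* of the 10 genes, whose product removes it, were thus both highest in COR. *Nt5e*, a nucleotidase that makes adenosine, was highest in GP at 62.0 FPKM, and the phosphate transporter genes *Slc20a1* and *Slc20a2* did not reach 3-fold in any pair.

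Of 8 osteoblast transcription factors, 6 were at least 3-fold higher in COR than in SAG, 4 in COR than in PF, and 2 in COR than in GP, and 0 were 3-fold lower in COR in these pairs. *Sp7*, which acts after *Runx2* in osteoblast formation, was at 199.9 FPKM in COR, 47.3 in GP, 33.8 in PF, and 7.93 in SAG. *Msx2*, a homeobox factor of the skull, was at 22.1, 2.13, 43.2, and 54.4 FPKM in COR, GP, PF, and SAG, an order unlike that of any of the 10 genes. Among receptors and regulators, *Pth1r*, the receptor of parathyroid hormone, was at 380.2, 241, 106, and 37.0 FPKM, and *Vdr*, the vitamin D receptor, at 19.6, 9.87, 12.6, and 1.74. Of the 5 genes of that list compared, *Pth1r* and *Vdr* were the 2 that were 3-fold higher in COR than in SAG.

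Among other osteoblast matrix genes, 4 of 9 were at least 3-fold higher in COR than in SAG and 1 was lower (*Mgp*, an inhibitor of mineral, at 965 FPKM in COR and 3311 in SAG), and 4 of 9 were higher in COR than in PF and 0 lower. *Ifitm5*, a membrane protein of osteoblasts, was at 439.8 FPKM in COR, 60.4 in GP, 141 in PF, and 9.68 in SAG, the order of *Bglap* and *Alpl*. *Postn*, which encodes periostin, was at 2358, 1284, 166, and 191 FPKM in COR, GP, PF, and SAG, and like *Ibsp* it was high in COR and GP and near in PF and SAG. *Tnn*, a tenascin, was at 431, 62.7, 15.7, and 10.7 FPKM and, like *Dmp1*, stood apart in COR. *Omd*, a proteoglycan of bone, was at 89.2, 57.5, 7.10, and 37.3 FPKM.

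Other osteocyte genes were less uniform. Of 5 compared, 2 were at least 3-fold higher in COR than in SAG (*Tnfsf11* and *Dkk1*), and between COR and GP 1 was higher in COR (*Dkk1*) and 1 in GP (*Fam20c*). *Tnfsf11*, which encodes RANKL, the osteoclast-forming ligand, was highest in GP, at 21.8 FPKM compared with 0.134 in PF, 1.14 in SAG, and 8.56 in COR. *Dkk1*, a Wnt antagonist, was at 27.0, 8.05, 3.52, and 4.74 FPKM in COR, GP, PF, and SAG. *Fam20c*, the kinase that phosphorylates the matrix phosphoproteins, was lowest in PF at 16.0 FPKM and highest in GP at 76.2. *Ptprz1*, a receptor phosphatase, was at 6.27 FPKM in COR, 4.57 in GP, 0.617 in PF, and 3.60 in SAG. *Pdpn*, the remaining gene compared, was lowest in COR at 11.1 FPKM, with 13.4 in GP, 11.5 in PF, and 22.6 in SAG. *Fgf23*, the phosphate-regulating hormone of osteocytes, is listed at 0 in all 4 libraries.

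**Figure D5:**
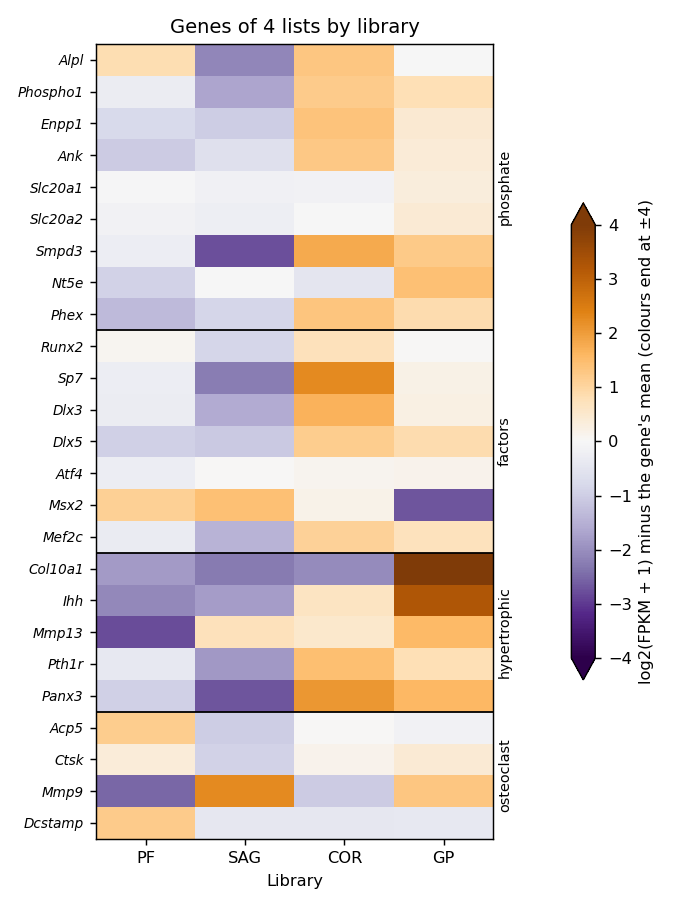
Log2(FPKM + 1) minus the mean of each gene over the PF, SAG, COR, and GP libraries (colors end at 4 in each direction), for genes of phosphate handling, 7 osteoblast transcription factors, hypertrophic chondrocytes, and osteoclasts that reached 1 FPKM in any library. *Alpl* and *Phex* are among the 10 genes. *Sp7*, *Smpd3*, and *Panx3* are highest in COR and lowest in SAG, *Col10a1* is high in GP alone at 600.5 FPKM, and *Msx2* is lowest in GP.

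The profile of the 10 genes was averaged over the 8 that reached 5 FPKM in some library and had a value in each, after centering log2(FPKM + 1) of each gene on its mean. The averaged profile was 1.70 in COR, 0.41 in GP, -0.47 in PF, and -1.65 in SAG. Among the 9802 genes that reached 5 FPKM in any library, the 5 nearest to it by Euclidean distance over the 4 libraries, at distances of 0.26 to 0.43, included *Dlx3*, *Rhbdl2*, *Dok5*, and *Slc36a2*. *Dlx3*, a homeobox factor of bone and teeth, was at 21.2 FPKM in COR, 7.20 in GP, 4.67 in PF, and 1.35 in SAG. *Slc36a2*, an amino acid transporter gene, was at 35.4, 16.2, 9.13, and 2.03 FPKM in COR, GP, PF, and SAG. The 8 genes themselves lay farther from their own average, at 1.08 for *Spp1* and *Mepe* to 1.64 for *Bglap*, and their orders differed.

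Promoter sequences were examined because the genes with a COR value were all highest there. *Sparc*, which has no COR value, was searched as well, and *Bglap2* had no window. RefSeq windows of 300 bases, 250 before and 50 after the start (GRCm38.p6), were found for 9 of the 10 genes, with 12 windows in all. The hexamer ACCACA, the core of the Runx recognition sequence, was searched on both strands, its other strand reading TGTGGT. It was found in 5 of the 12 windows and in 5 of the 9 genes, *Spp1*, *Bglap*, *Dmp1*, *Mepe*, and *Sparc*. Of all 32851 promoter windows, 16.8% held it. Stretches of 150 bases that end just before the start are shown for *Bglap* (GRCm38.p6 chr3:88384467-88384616, minus strand), *Spp1* (chr5:104434961-104435110, plus strand), and *Mepe* (chr5:104325179-104325328, plus strand), since they hold the match and represent genes with different orders over the tissues. Capitals mark the match, 5′ to 3′ along the gene.
Bglap promoter: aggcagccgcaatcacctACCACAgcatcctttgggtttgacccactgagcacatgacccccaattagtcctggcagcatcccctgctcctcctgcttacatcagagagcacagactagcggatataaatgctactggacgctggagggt
Spp1 promoter: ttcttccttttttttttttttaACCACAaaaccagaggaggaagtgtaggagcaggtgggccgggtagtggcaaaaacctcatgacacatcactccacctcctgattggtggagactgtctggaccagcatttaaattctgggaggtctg
Mepe promoter: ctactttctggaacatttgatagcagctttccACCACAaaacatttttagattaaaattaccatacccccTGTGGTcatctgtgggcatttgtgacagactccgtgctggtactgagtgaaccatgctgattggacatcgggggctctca
The first base of the match is at -132 for *Bglap* and -128 for *Spp1* relative to the start, and *Mepe* holds matches at -118 and, as TGTGGT, at -80. In *Sparc* the match lies after the start, at position 35, and in *Dmp1* it lies in the second of 2 windows at -164. A match is a string of letters and was not examined for binding.

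Markers of other cell types differed between the libraries as well. Hypertrophic chondrocytes, which also make *Ibsp*, *Spp1*, and *Alpl*, were marked by 5 genes that summed to 835 FPKM in COR, 1594 in GP, 154 in PF, and 389 in SAG. *Col10a1*, the collagen gene that defines the cell type, was at 1.08 FPKM in COR, 600.5 in GP, 1.44 in PF, and 0.813 in SAG. *Mmp13* was at 298, 605, 28.9, and 346 FPKM in COR, GP, PF, and SAG, and *Ihh* at 6.48, 44.0, 0.136, and 0.381. *Panx3* was at 149.7, 104, 17.1, and 4.46 FPKM in those libraries, and *Pth1r* has been given above. All 5 except *Col10a1* were thus at least 3-fold higher in COR than in PF, and the part of hypertrophic chondrocytes in the levels of COR and GP was not tested.

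Osteoclasts also make *Spp1*, and their 8 markers summed to between 537 FPKM in COR and 758 in GP. *Ctsk*, which is not particular to osteoclasts, supplied 229 FPKM in SAG to 576 in GP. *Mmp9* was at 301 FPKM in SAG, 154 in GP, 29.9 in COR, and 10.2 in PF, and *Acp5* was highest in PF at 69.1. *Dcstamp* was at 2.07 FPKM in PF and at or below 0.0190 elsewhere, and 4 of the 8, *Calcr*, *Ocstamp*, *Atp6v0d2*, and *Oscar*, were below 0.3 FPKM in each library. The part of osteoclasts in the *Spp1* levels was not tested. Markers of chondrocytes were highest in SAG and GP, with *Col2a1* at 1749.8 and 1731 FPKM compared with 31.4 in PF and 35.4 in COR. *Ttr*, a gene of the choroid plexus, was at 5103 FPKM in SAG, 465 in PF, 141 in COR, and 9.74 in GP. SAG, where 5 of the 9 genes were lowest, thus also held the most transcript of these other tissues, and their part in its low levels was not tested. Ratios within a library, such as *Bglap* to *Ibsp*, do not depend on its total, but they can differ with the cell types it held, which was not tested. Of the blood cell and endothelial markers, none exceeded 9.40 FPKM except *Kdr*, at 14.9 in SAG.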

How the data were processed

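Total RNA was measured by bulk RNA-seq in sorted CD51+;CD200+ cells, with a single library for COR, GP, PF, and SAG each. Each deposited table gives 1 FPKM per gene symbol. The authors mapped reads to mouse mm9 with STAR 2.5.1b and estimated FPKM with Cuffdiff of Cufflinks 2.2.1 and the iGenomes gene model, and the library normalization option is not given in the sources used here. Fragment counts were not used here, so depth is relative and no counting interval is given. Groups came from the sample titles.

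The 10 genes and the gene lists were chosen with earlier results of these data known. Log2 ratios of FPKM + 1 were computed for genes that reached 1 FPKM in either library of a pair, and 3-fold or more was counted. The 0 of *Sparc* in COR was treated as missing in the ratios, and the 0 values of *Col1a1* and *Col1a2* in the counts from gene lists. Shares and medians over all genes otherwise used the 0 values of *Col1a1*, *Col1a2*, and *Col3a1* as listed. Ranks, total FPKM, nearest profiles, and shares of genes by highest library used every value as listed. Genes other than the 10 were named from each list if they passed 3-fold in a pair and reached 5 FPKM in its higher library, at most 4 per list by size of ratio. *Runx2*, *Ctsk*, *Mgp*, *Slc20a1*, *Slc20a2*, *Fgf23*, *Pdpn*, and the flanking and low marker genes were named outside that rule. *Dspp* and the nearest profiles were named by rule, and some items that the rule names are not reported here. Positions and coding sequences were read from the GENCODE annotation of mm9 and promoters from RefSeq (GRCm38.p6). Steps were tested on simulated data, and other pseudocounts, filters, scalings, and thresholds were tried. Python 3.11.15, numpy 2.4.6, pandas 2.3.3, scipy 1.17.1, and matplotlib 3.10.9 were used.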

Additional observations from a re-analysis of the deposited data

How the results depend on the processing

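No paired analysis was possible because there was a single library for COR, GP, PF, and SAG each. Each median kept its direction under the alternatives run, except that of GP vs PF. With FPKM of 1 or more in both libraries, or of 5 or more in 1 of them, the GP vs PF median was -0.03 and 2 genes passed 3-fold, and with a pseudocount of 0.1 the median was 1.77 there and 3.68 for COR vs PF. With a pseudocount of 5, the median was 1.06 for COR vs PF, 1.28 for GP vs SAG, and 0.50 for GP vs PF, and 3 genes passed for COR vs PF and 2 for GP vs PF. With FPKM of 1 or more in both, 3 genes passed for COR vs PF. At 2-fold in place of 3-fold, 5 genes passed for COR vs GP, 8 for GP vs PF (6 higher in GP and 2, *Bglap* and *Bglap2*, higher in PF), and 5 for PF vs SAG. These changes follow from the low values of *Mepe*, *Phex*, and *Sost* entering or leaving, or from the threshold itself. With the osteocalcin copies summed as 1 gene, 7 of 8 genes passed for COR vs SAG, 5 of 8 for COR vs PF, and 2 of 8 for COR vs GP. Counted so, 5 of 9 passed for GP vs SAG, 4 of 9 for GP vs PF, and 2 of 6 for PF vs SAG. The COR vs GP median was then 0.81.

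Of 457 single-gene ratios under the alternatives, 442 kept their direction and side of 3-fold. *Sost* passed in 4 pairs with a pseudocount of 0.1, *Mepe* and *Phex* ceased to pass in 8 ratios with a pseudocount of 5, *Sparc* in GP vs PF became 0.00 with quantile normalization, and with equal summed FPKM *Sparc* in that pair became 0.07 and *Ibsp* in PF vs SAG became -0.00. That scaling moved the median of all genes to -0.21 for PF vs SAG, -0.17 for GP vs SAG, and -0.14 for COR vs SAG. The PF vs SAG median was 0.76 with quantile normalization and 0.82 with no filter, compared with 1.42 as reported. COR was highest for 9 of 9 genes under each of the scalings run. The full order over the libraries was kept by 10 genes with median-ratio scaling, 9 with quantile normalization, and 8 with equal summed FPKM. The shallower PF library limits the precision of low values there.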
